A study of Mus musculus with 8 samples.

Results

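The mRNAs of the nuclear-encoded subunits of the mitochondrial respiratory chain and ATP synthase were followed in mouse peripheral retina, complex by complex. Members were taken by gene symbol: Nduf followed by a, b, c, s or v and a number, Sdha to Sdhd, Uqcr, Cyc1, Cox4 to Cox8, and Atp5, without Ndufa4l2 and the Ndufaf assembly factors. The rule matched 85 of the 23284 genes in the count tables: 36 of complex I, 4 of complex II, 9 of complex III, 19 of complex IV and 17 of complex V. Of these, 81 passed the filter on low counts and were tested. The 4 that did not pass, Cox6a2, Cox7b2, Cox8b and Cox8c, are isoforms of complex IV subunits known from muscle, heart or testis. A further 4 matched symbols are not structural subunits. Cox4nb codes for a subunit of the membrane protein complex of the endoplasmic reticulum, Cox7a2l for a factor that joins complexes III and IV, Atp5sl for a complex I assembly protein, and Atp5s for a protein related to it. Ndufa4, placed under complex I by its symbol, codes for a protein that is now counted as a subunit of complex IV.

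Complex I takes electrons from NADH and complex II from succinate, and both pass them to coenzyme Q. Complex III hands them on to cytochrome c and complex IV to oxygen, and the proton gradient built on the way drives complex V, the ATP synthase. Some core subunits of complexes I, III, IV and V are made from mitochondrial DNA, and those transcripts were not analysed here. In the retina, photoreceptor inner segments are packed with mitochondria, and proteins of the MYC family are known to bind the sequence CACGTG near many metabolic genes.

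RNA was sequenced from microdissected tissue at postnatal day 12. In the 4 libraries labelled RbnullTET-MYCN, called TET-MYCN below, the labels give Cre under the alpha enhancer of Pax6, a Cre-dependent rtTA transactivator at the Rosa26 locus, a TRE-MYCN transgene and an Rb null genotype. In the 4 libraries labelled Rbnull, called Rb-null below, they give the same Cre driver with a floxed Rb allele on both chromosomes. For the TET-MYCN mice the series text leaves the floxed allele out, and doxycycline is not mentioned in the labels used here. The enhancer is active in the peripheral retina, so the tissue can hold cells without recombination. The labels do not say that each library came from its own animal, so p-values and intervals reflect the spread among the libraries, part of which may be technical.

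Gene counts lay between 14872131 and 22873979 per library. Mouse Mycn was at 201 to 276 CPM in TET-MYCN libraries and 108 to 339 CPM in Rb-null libraries, and Rb1 was at 123 to 179 CPM in TET-MYCN libraries and 137 to 184 CPM in Rb-null libraries. Neither gene is a strict check of the labels: reads of the transgene may not map to mouse Mycn, and most exons of Rb1 can remain after recombination. Markers of retinal cells were present in all libraries. The 10 rod markers summed to 2862 to 6731 CPM in TET-MYCN libraries and 4049 to 18383 CPM in Rb-null libraries (all 10 negative, median log2 fold change -1.24, 0 called, 7 at an unadjusted p under 0.05). The 8 progenitor and cell cycle markers summed to 2303 to 2815 CPM in TET-MYCN libraries and 1416 to 2750 CPM in Rb-null libraries (all 8 positive, median 0.38, 0 called, 4 at an unadjusted p under 0.05). At that threshold 7.72% of all genes were lower and 8.06% higher in TET-MYCN libraries. Markers of cones (8 of 8), bipolar cells (7 of 7) and Müller glia (5 of 6) also had negative values, with medians of -0.87, -1.23 and -0.72 and 0 called. Amacrine and ganglion cell markers were mixed, with 6 of 9 negative, 3 positive, a median of -0.39 and 0 called. Vessel markers were negative for 5 of 5, with a median of -0.23 and 0 called. For 4 of the 6 Müller glia markers the groups did not overlap, lower in TET-MYCN libraries, against 3.29% of all genes. Without TET-MYCN 3 the Müller glia markers Glul, Kcnj10 and Aqp4 and the vessel marker Cldn5 were called lower, against 0.357% of all genes (lowest adjusted p = 0.0245, edgeR's quasi-likelihood test). Lens markers summed to 8.35 to 49.2 CPM in TET-MYCN libraries and 18.3 to 512 CPM in Rb-null libraries. All 9 tested lens markers were negative, with a median of -3.52, 0 called and 8 at an unadjusted p under 0.05. Pigment and ciliary epithelium markers were positive for 4 of 5, with a median of 0.63 and 0 called. Microglia and macrophage markers were positive for 4 of 7, with a median of 0.03 and 0 called. Muscle markers summed to 9.94 to 13.7 CPM in TET-MYCN libraries and 11.5 to 13.7 CPM in Rb-null libraries, and of 5 red blood cell markers 3 were at 0 in every library. The part of these differences in the values below was not tested, and in bulk tissue fewer cells of a type and less RNA per cell cannot be told apart.

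For the respiratory chain, library TET-MYCN 3 differed from the rest of its group, and results are given with and without it. In this library 80 of 81 tested members were above the mean of the other 3 TET-MYCN libraries, by a median of 0.58 on the log2 CPM scale (range -0.01 to 0.98). It was the highest of all 8 libraries for 72 of the 81. Rb-null 4 was above the mean of the other 3 Rb-null libraries for 79 of 81 members, by a median of 0.23. TET-MYCN 2 and Rb-null 2 were the low libraries, above the mean of the rest of their group for 1 and 3 of 81 members, with medians of -0.28 and -0.21.

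Short transcripts outside the respiratory chain were also high in TET-MYCN 3. The median transcript length was 838 bases for members and 3149 bases for other genes. Below 600 bases, the library exceeded the rest of its group by a median of 0.63 for 23 members and 0.55 for 116 other genes. Above 2000 bases, the medians were 0.22 for 9 members and -0.09 for 10744 other genes. Across genes within this library, Spearman's rho of the difference with transcript length was -0.45 for members and -0.60 for 14175 other genes, a description of genes that share one library. The library also had the largest share of count entries for alignments to several places, 12.8%. This share was 9.15% to 9.73% in the other TET-MYCN libraries and 9.05% to 11.7% in Rb-null libraries. What sets TET-MYCN 3 apart was not tested. A like trend was seen in Rb-null 4, with rho of -0.49 for members and -0.47 for other genes. Below 600 bases Rb-null 4 exceeded the rest of its group by medians of 0.28 for members and 0.24 for other genes. TET-MYCN 1 and 2 ran the other way, with rho of 0.40 and 0.48 for other genes. The fits without TET-MYCN 3 keep Rb-null 4.

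**Figure D1:**
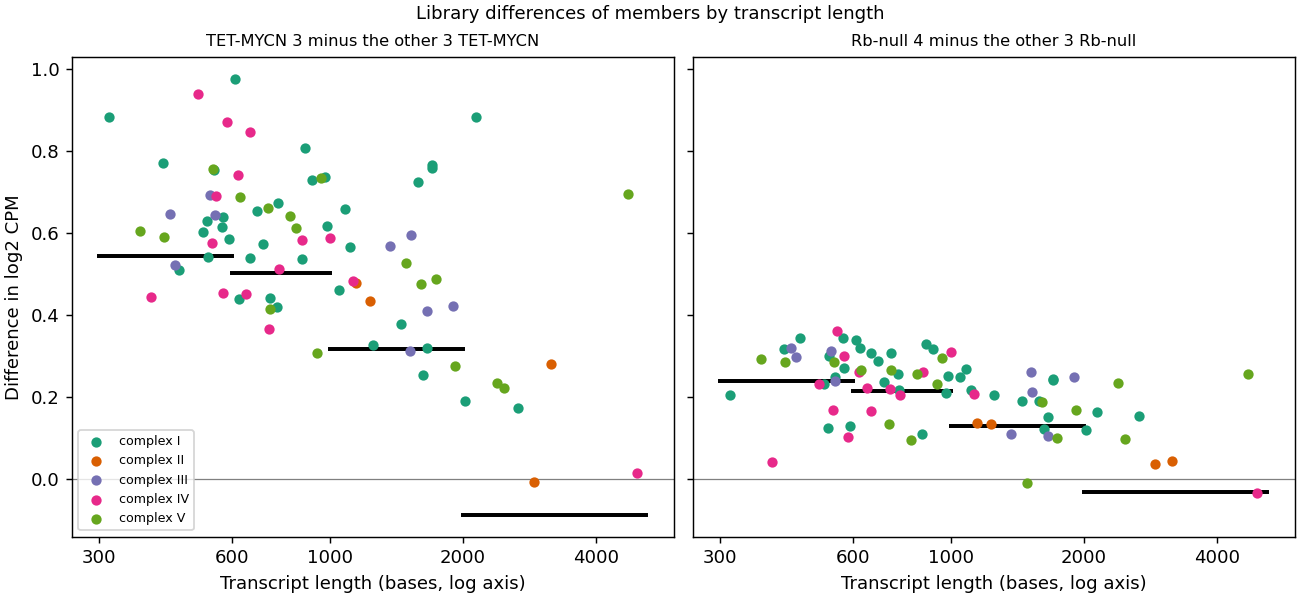
Difference of TET-MYCN 3 (left) and Rb-null 4 (right) from the mean of the other 3 libraries of the group, in log2 CPM, against transcript length on a log axis; each point is 1 of 81 tested members, and black bars are medians of other genes in 4 length bands. In TET-MYCN 3 the points centre on 0.58 and the black bars step down from 0.55 below 600 bases to -0.09 above 2000 bases.

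No member passed the test for a difference between the groups. By edgeR's quasi-likelihood test with Benjamini-Hochberg adjustment over 15106 genes, 0 of 81 members passed, where 0.0596% of all genes did (0.053% higher and 0.00662% lower in TET-MYCN libraries), and the lowest adjusted p of a member was 0.278. At an unadjusted p under 0.05 the test gave 1 member, Atp5g2, against 15.8% of all genes (8.06% higher and 7.72% lower). DESeq2 called 0 members among the 539 genes it called, and limma-voom called 0 genes (2262 had an unadjusted p below 0.05). The 4 TET-MYCN libraries and the 4 Rb-null libraries overlapped for every tested member, whereas 7.65% of all genes had groups that did not overlap (4.36% higher and 3.29% lower). The median log2 fold change, TET-MYCN over Rb-null, was 0.05 over the members and 0.01 over all genes. Among genes of like length the members did not exceed the others throughout: below 600 bases the medians were 0.05 for members and 0.16 for other genes, from 600 to 1000 bases 0.07 and 0.09, from 1000 to 2000 bases 0.07 and 0.05, and above 2000 bases -0.02 and -0.00. Of the 81 members 58 were positive, where 52.2% of all genes were, and without the 4 that are not structural subunits 56 of 77 were positive.

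The sign of these small values rested on TET-MYCN 3. Members stood high in this library, so leaving it out lowers their values by construction. Rb-null 4, in which they also stood high, was kept. The direction of the values that follow is therefore no separate result about the members. Without TET-MYCN 3 the median of the members was below that of other genes in all 4 length bands. It ran from -0.14 against 0.02 below 600 bases to -0.06 against 0.02 above 2000 bases. Over all lengths it was -0.11, 8 of 81 were positive against 50.3% of all genes, and 0 were called against 1.52% of all genes (1.16% higher and 0.357% lower). The lowest adjusted p of a member was then 0.0877 (edgeR's quasi-likelihood test). At an unadjusted p under 0.05, 9 members were lower in TET-MYCN libraries, against 10.9% of all genes. For 8 members all 3 remaining TET-MYCN libraries lay below all 4 Rb-null libraries, against 8.62% of all genes, and for 0 members they lay above, against 11.9%. Of these 8 members, 7 were among the 36 of complex I and 1 was of complex V.

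The 95% interval of each fold change bounded what the data allow. With all libraries it lay within 1.5-fold in either direction for 74 of 81 members and within 2-fold for 80, against 55.2% and 83.3% of all genes tested. The members whose interval reached past 1.5-fold were Ndufa4, Ndufs5, Cox4i2, Cox6b2, Cox7a1, Atp5g2 and Atp5sl. Cox7a1 alone reached past 2-fold. Leaving out TET-MYCN 3, the interval lay within 1.5-fold for 76 members and within 2-fold for 79, against 54.5% and 81.2% of all genes. Ndufs5 and Cox7a1 then reached past 2-fold. For the 9 members lower at an unadjusted p under 0.05 in that fit, the interval lay wholly below 0.

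**Figure D2:**
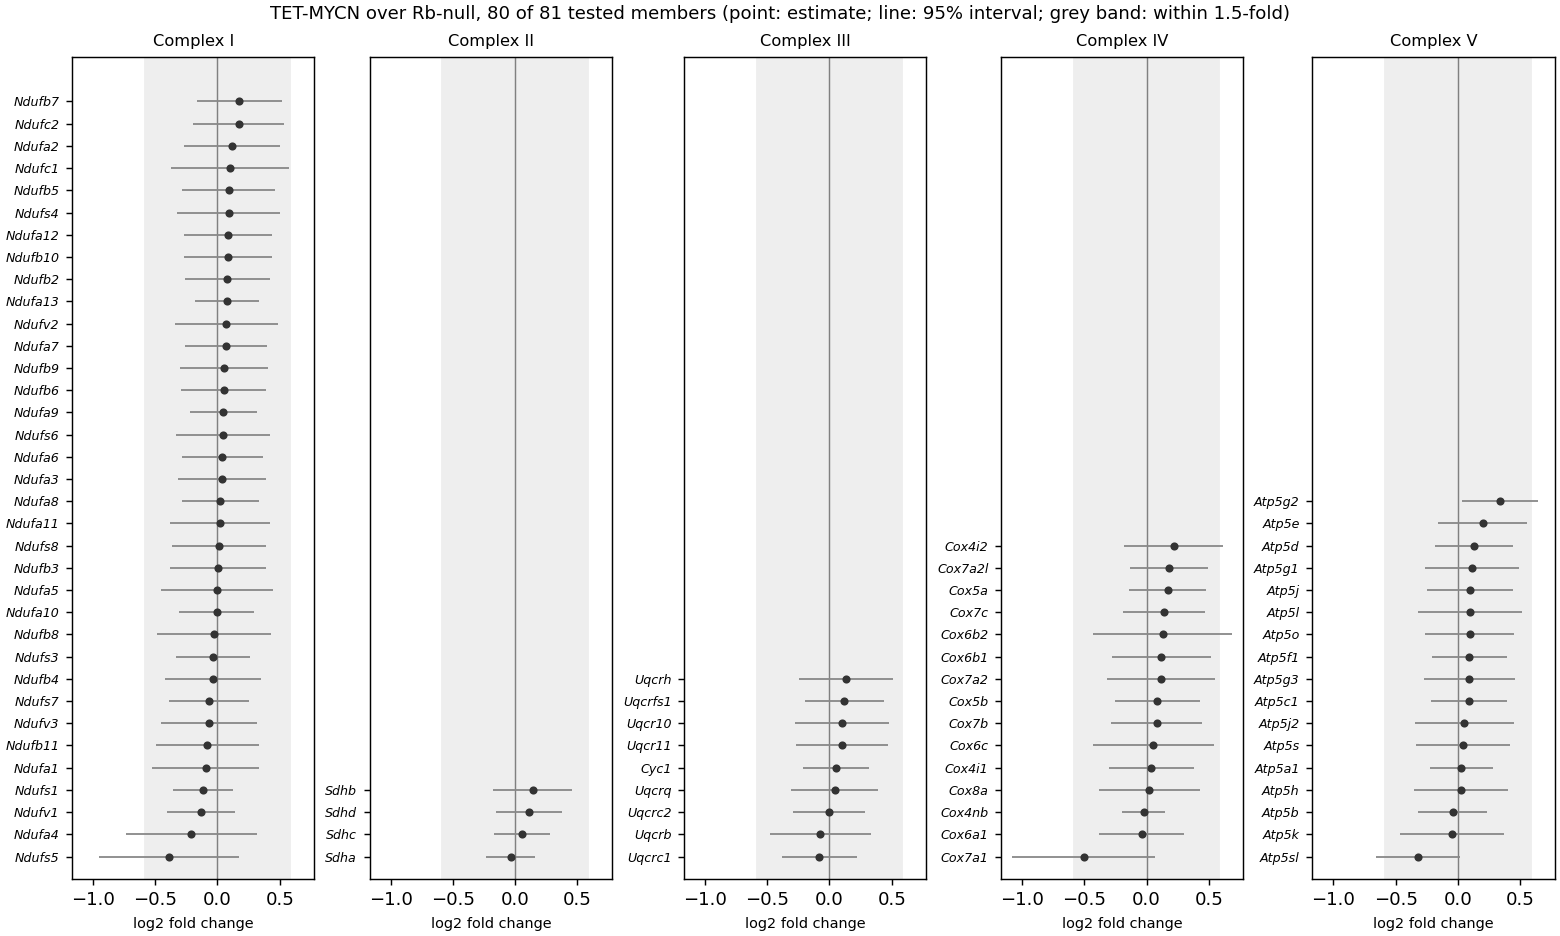
Log2 fold change of 80 of the 81 tested members, TET-MYCN over Rb-null, one row per gene and one panel per complex; points are estimates, lines 95% intervals and the grey band a change of less than 1.5-fold. All but 7 of the intervals stay within the band, and only that of Atp5g2 lies wholly on one side of 0.

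Summed over its genes, complex I was at 2545, 2399, 3752 and 2557 CPM in the TET-MYCN libraries and 2694, 2486, 2924 and 3169 CPM in the Rb-null libraries, each numbered 1 to 4. The means were 2813 ± 630 CPM in TET-MYCN libraries and 2818 ± 294 CPM in Rb-null libraries (SD, n = 4 each). TET-MYCN 3 was the highest of the 8 libraries, TET-MYCN 2 the lowest, and the others lay among the Rb-null libraries.

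Complex II was at 476, 458, 552 and 505 CPM in TET-MYCN libraries and 471, 468, 503 and 504 CPM in Rb-null libraries. Complex III was at 858, 795, 1199 and 884 CPM in TET-MYCN libraries and 859, 826, 947 and 1021 CPM in Rb-null libraries. Both sums repeated the order of complex I at their ends, with TET-MYCN 3 highest and TET-MYCN 2 lowest.

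Complex IV was at 1737, 1640, 2578 and 1812 CPM in TET-MYCN libraries and 1767, 1678, 1898 and 2090 CPM in Rb-null libraries. Complex V was at 3792, 3387, 4860 and 3728 CPM in TET-MYCN libraries and 3685, 3465, 3953 and 4175 CPM in Rb-null libraries. The ratio of the group means, TET-MYCN over Rb-null, was 0.998 for complex I, 1.02 for II, 1.02 for III, 1.04 for IV and 1.03 for V. All 85 genes together summed to 8679.7 to 12940.2 CPM in TET-MYCN libraries and 8923 to 10959 CPM in Rb-null libraries. The log2 ratio of the means was -0.00 for complex I (0.01 when scaled by total counts alone) and 0.03 to 0.06 for the others; without TET-MYCN 3 it was negative for all 5, between -0.17 for complex I and -0.02 for complex II.

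**Figure D3:**
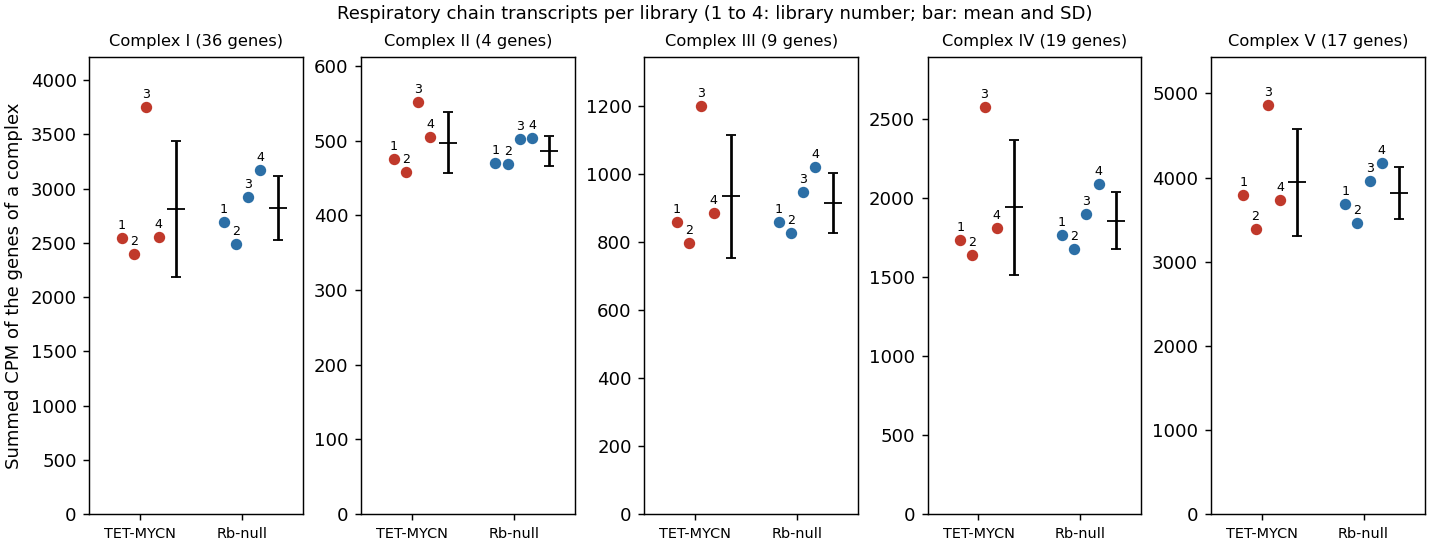
Summed CPM of the genes of each complex per library, TET-MYCN left of Rb-null in each panel; numbers are library numbers, and bars are the mean and SD of 4 libraries. TET-MYCN 3 tops each panel, at 3752 CPM for complex I against 2399 to 2557 CPM in the other TET-MYCN libraries.

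Complex I is the largest complex, with a matrix arm that oxidises NADH and a membrane arm that pumps protons. Its 36 genes had a median log2 fold change of 0.03, with 23 positive and 0 called by edgeR's quasi-likelihood test (0 at an unadjusted p under 0.05). The 16 matrix arm genes had a median of 0.03 and the 19 membrane arm genes one of 0.04, with 10 and 13 positive, and without TET-MYCN 3 -0.15 with 0 and -0.13 with 1 positive. Without TET-MYCN 3 the median was -0.14, with 1 of 36 positive and 0 called. In that fit 7 of the 36 were lower at an unadjusted p under 0.05, against 10.9% of all genes. For 7 of the 36, Ndufa4 among them, the groups did not overlap, lower in TET-MYCN libraries, against 8.62% of all genes.

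Among the core subunits, Ndufv1, which binds NADH, was at 137, 139, 181 and 159.9 CPM in TET-MYCN libraries and 163, 147, 185 and 183 CPM in Rb-null libraries. Ndufs1, an iron-sulfur subunit of the same module, was at 96.3, 93.8, 104 and 87.3 CPM in TET-MYCN libraries and 100.3, 87.5, 114 and 111 CPM in Rb-null libraries. The groups overlapped for both, and neither had its 4 TET-MYCN libraries at one end.

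The log2 fold changes were -0.14 ± 0.12 for Ndufv1 and -0.11 ± 0.11 for Ndufs1 (± SE; adjusted p = 0.631 and 0.655, edgeR's quasi-likelihood test). Ndufs7 and Ndufs8, which carry the last iron-sulfur clusters before coenzyme Q, were at -0.07 ± 0.14 and 0.01 ± 0.17. Without TET-MYCN 3 all 4 were negative, at -0.22 ± 0.11 for Ndufv1, -0.16 ± 0.11 for Ndufs1, -0.18 ± 0.13 for Ndufs7 and -0.16 ± 0.12 for Ndufs8.

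Ndufb7, an accessory subunit of the membrane arm, had the most positive value of the complex, 0.18 ± 0.15 with all libraries and 0.06 ± 0.14 without TET-MYCN 3. It was at 49.5, 47.0, 71.8 and 63.7 CPM in TET-MYCN libraries and 49.9, 44.7, 50.5 and 60.3 CPM in Rb-null libraries. TET-MYCN 3 and 4 lay above the Rb-null libraries and TET-MYCN 1 and 2 among them.

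Ndufa4 had the highest level per transcript length of this group, 311 CPM per kilobase averaged over the 8 libraries. It was at 156, 143, 278 and 126 CPM in TET-MYCN libraries and 192, 164, 217 and 240 CPM in Rb-null libraries. TET-MYCN 3 was the highest of all libraries, and the other 3 TET-MYCN libraries were the lowest 3. The log2 fold change was -0.21 ± 0.24 with all libraries (adjusted p = 0.721) and -0.52 ± 0.14 without TET-MYCN 3 (adjusted p = 0.0877, edgeR's quasi-likelihood test), the lowest adjusted p of any member in that fit.

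Ndufs5, an accessory subunit at the intermembrane face, had the most negative value of complex I, -0.39 ± 0.25 with all libraries (adjusted p = 0.479) and -0.59 ± 0.24 without TET-MYCN 3 (adjusted p = 0.178, edgeR's quasi-likelihood test). It was at 1.23, 1.08, 1.74 and 0.956 CPM in TET-MYCN libraries and 1.58, 1.40, 1.83 and 1.75 CPM in Rb-null libraries, on 19 to 31 counts per library. TET-MYCN 3 lay among the Rb-null libraries and the other TET-MYCN libraries below them. At 2.75 CPM per kilobase it was far under the other complex I genes, which had 35.4 to 311 CPM per kilobase. A near-identical copy, BC002163, matches 319 of the 525 bases of its transcript at 99.4% identity, so its level is uncertain.

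Near-identical copies, defined as another gene with at least 95% identity over at least 50% of the transcript, were present for 11 of the 85 members. They were Ndufb11, Ndufs3, Ndufs5, Ndufs6, Uqcrb, Cox7c, Atp5g2, Atp5h, Atp5k, Atp5l and Atp5o. Reads shared with a copy can be lost as aligned to several places, so the levels of these genes are less certain.

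Complex II, succinate dehydrogenase, joins the tricarboxylic acid cycle to the chain and is encoded wholly in the nucleus. Its catalytic subunit gene Sdha was at 235, 232, 240.1 and 257 CPM in TET-MYCN libraries and 242, 235, 260.0 and 252 CPM in Rb-null libraries. The groups overlapped, and TET-MYCN 3 did not stand out. The log2 fold change was -0.04 ± 0.09 with all libraries and -0.03 ± 0.09 without TET-MYCN 3.

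The promoter of Sdha is shown because it holds 3 matches to the motif of NRF1 (GCGCA, any base, GCGC), an activator of many respiratory chain genes. The stretch is the 250 bases before the gene's start in RefSeq, chr13:74350241-74350490 of GRCm38.p6 on the minus strand, 5′ to 3′, with the motif in capitals.
Sdha: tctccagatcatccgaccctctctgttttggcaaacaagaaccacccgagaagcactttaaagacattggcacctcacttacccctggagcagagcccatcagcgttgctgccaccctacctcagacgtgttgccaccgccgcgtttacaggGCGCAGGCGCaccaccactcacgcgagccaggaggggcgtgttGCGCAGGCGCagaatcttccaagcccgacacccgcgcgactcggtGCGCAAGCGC
The matches begin 98, 55 and 10 bases before the start.

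The iron-sulfur subunit gene Sdhb was at 72.3, 62.3, 101 and 85.3 CPM in TET-MYCN libraries and 69.5, 72.4, 71.4 and 78.2 CPM in Rb-null libraries. Its 4 TET-MYCN libraries spanned the whole Rb-null range, and the log2 fold change was 0.14 ± 0.14 (adjusted p = 0.684, edgeR's quasi-likelihood test). The membrane anchor genes Sdhc and Sdhd had 0.06 ± 0.10 and 0.11 ± 0.12. The values without TET-MYCN 3 were 0.01 ± 0.11 for Sdhb, -0.02 ± 0.08 for Sdhc and -0.01 ± 0.08 for Sdhd. None of the 4 genes was called, and 0 were under an unadjusted p of 0.05.

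Complex III had a median log2 fold change of 0.05 over 9 genes, with 6 positive, 0 called and 0 at an unadjusted p under 0.05 by edgeR's quasi-likelihood test. Once TET-MYCN 3 was left out, the median was -0.09 with 0 of 9 positive. Uqcrfs1, the Rieske iron-sulfur protein, was at 96.5, 84.7, 131 and 85.1 CPM in TET-MYCN libraries and 89.5, 90.3, 89.4 and 96.8 CPM in Rb-null libraries. Cyc1, cytochrome c1, was at 129, 116, 159 and 139 CPM in TET-MYCN libraries and 123, 123, 128 and 149.7 CPM in Rb-null libraries. In both genes TET-MYCN 3 was highest and TET-MYCN 2 lowest of the 8 libraries.

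Their log2 fold changes were 0.12 ± 0.14 and 0.05 ± 0.12 (adjusted p = 0.735 and 0.880, edgeR's quasi-likelihood test), and without TET-MYCN 3 they were -0.04 ± 0.08 and -0.03 ± 0.10. Uqcrh, the hinge protein beside cytochrome c1, had the most positive value of the complex, 0.13 ± 0.17, and -0.06 ± 0.11 without TET-MYCN 3. Uqcrc1, a core protein of the matrix side, had the most negative, -0.08 ± 0.13, and -0.20 ± 0.11 without TET-MYCN 3. Uqcr11, a small accessory subunit, had the highest level per length, 168 CPM per kilobase, and a log2 fold change of 0.10 ± 0.17, and -0.04 ± 0.14 without TET-MYCN 3.

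Complex IV, cytochrome c oxidase, had a median log2 fold change of 0.09 over 15 tested genes, with 12 positive, 0 called and 0 at an unadjusted p under 0.05 by edgeR's quasi-likelihood test. Without TET-MYCN 3 the median was -0.10 with 3 of 15 positive. Cox4i1, the ubiquitous form of the largest nuclear subunit, was at 278, 266, 414 and 331 CPM in TET-MYCN libraries and 293, 279.6, 335 and 348 CPM in Rb-null libraries. Cox5a, a regulatory subunit on the matrix side, was at 119, 94.5, 144 and 103 CPM in TET-MYCN libraries and 103, 98.0, 94.1 and 115 CPM in Rb-null libraries. The groups overlapped for both.

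Log2 fold changes were 0.04 ± 0.15 for Cox4i1, 0.17 ± 0.14 for Cox5a and 0.09 ± 0.15 for Cox5b, a zinc-binding matrix-side subunit (adjusted p = 0.932, 0.587 and 0.833, edgeR's quasi-likelihood test). Without TET-MYCN 3 they were -0.11 ± 0.12, 0.04 ± 0.11 and -0.08 ± 0.10. Cox6a1, with the highest level per length of complex IV at 467 CPM per kilobase, had -0.04 ± 0.15, and -0.16 ± 0.13 without TET-MYCN 3. The supercomplex factor Cox7a2l had 0.18 ± 0.14, and 0.04 ± 0.11 without TET-MYCN 3. Cox4nb, the endoplasmic reticulum gene, was at 116, 112, 115 and 115 CPM in TET-MYCN libraries and 119, 115, 116 and 114 CPM in Rb-null libraries, with TET-MYCN 3 in the middle.

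Several complex IV subunits have isoforms with restricted expression, and these stayed minor in all 8 libraries. Cox4i2, the isoform known from lung and from the response to low oxygen, was at 20.1, 26.5, 29.2 and 21.7 CPM in TET-MYCN libraries and 18.7, 16.1, 25.9 and 23.1 CPM in Rb-null libraries. Per transcript length it made up 7.47% ± 1.37 of the Cox4 pair in TET-MYCN libraries and 6.52% ± 0.76 in Rb-null libraries (SD, n = 4 each). The groups overlapped, with TET-MYCN 2 highest at 9.49%, and the log2 fold change of the gene was 0.22 ± 0.18 (adjusted p = 0.589, edgeR's quasi-likelihood test) and 0.12 ± 0.18 without TET-MYCN 3.

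Cox6b2, known from testis, made up 8.11% ± 1.17 of the Cox6b pair in TET-MYCN libraries and 8.16% ± 1.76 in Rb-null libraries, and its log2 fold change was 0.13 ± 0.25 with all libraries and -0.14 ± 0.20 without TET-MYCN 3. Cox7a1, the heart and muscle isoform, was at 0.803, 0.951, 1.40 and 1.31 CPM in TET-MYCN libraries and 1.58, 1.27, 1.90 and 1.61 CPM in Rb-null libraries, on 13 to 31 counts. TET-MYCN 1 and 2 lay below all Rb-null libraries and the others among them. Its log2 fold change, the most negative of all members, was -0.51 ± 0.26 with all libraries (adjusted p = 0.368) and -0.63 ± 0.27 without TET-MYCN 3 (adjusted p = 0.197, edgeR's quasi-likelihood test).

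The untested isoforms had few counts, and 3 counts, the limit that a count of 0 allows, stand for 0.130 to 0.202 CPM depending on the library (counting error only). Cox8b, of rodent heart and muscle, was at 0.926, 0.0865, 0.281 and 0.956 CPM in TET-MYCN libraries and 0.356, 0.0607, 0.262 and 0.269 CPM in Rb-null libraries. Cox6a2 had 1 to 6 counts per library, Cox7b2 had 0 to 3, and Cox8c had 0 in all libraries. Cox8b was highest in TET-MYCN 1 and 4, and the groups overlapped.

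Complex V makes ATP from the proton gradient. Its 17 genes had a median log2 fold change of 0.09, with 14 positive, 0 called and 1 at an unadjusted p under 0.05 by edgeR's quasi-likelihood test. Without TET-MYCN 3 the median was -0.10 with 3 of 17 positive. Atp5b, the catalytic beta subunit, was at 1132, 1008, 1309 and 1107 CPM in TET-MYCN libraries and 1123, 1052, 1238 and 1276 CPM in Rb-null libraries. Atp5a1, the alpha subunit, was at 781, 672, 854 and 747 CPM in TET-MYCN libraries and 731, 686, 791 and 787 CPM in Rb-null libraries. The groups overlapped for both genes of the catalytic head, and per transcript length Atp5b stood highest of all members at 603 CPM per kilobase.

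Log2 fold changes were -0.04 ± 0.12 for Atp5b, 0.03 ± 0.11 for Atp5a1 and 0.09 ± 0.14 for the central stalk subunit Atp5c1 (adjusted p = 0.909, 0.933 and 0.803, edgeR's quasi-likelihood test). Without TET-MYCN 3 they were -0.12 ± 0.11, -0.03 ± 0.11 and -0.05 ± 0.10. The epsilon subunit Atp5e had 0.20 ± 0.16 with all libraries and 0.03 ± 0.12 without TET-MYCN 3. The 5 head and central stalk genes had a median of 0.09 and the 10 outer stalk and membrane genes one of 0.09, with 4 and 9 positive. With TET-MYCN 3 left out, the medians were -0.03 with 2 of 5 positive and -0.10 with 1 of 10 positive.

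The membrane rotor of ATP synthase is a ring of c subunits, and 3 genes code for the same mature protein. Atp5g2 was at 184, 156, 238 and 197 CPM in TET-MYCN libraries and 154, 142, 142 and 175 CPM in Rb-null libraries. TET-MYCN 1, 3 and 4 lay above all Rb-null libraries and TET-MYCN 2 among them. Its log2 fold change was 0.34 ± 0.14 (95% interval 0.03 to 0.64), with an unadjusted p of 0.0325 that did not pass adjustment (adjusted p = 0.278, edgeR's quasi-likelihood test). Without TET-MYCN 3 it was 0.23 ± 0.11, with an interval of -0.03 to 0.48, and over the 8 fits that left out 1 library it ran from 0.23 to 0.42.

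Atp5g1 was at 94.9, 89.95, 151 and 95.1 CPM in TET-MYCN libraries and 93.0, 90.4, 102 and 114 CPM in Rb-null libraries. Atp5g3 was at 274, 261, 407 and 238 CPM in TET-MYCN libraries and 267, 255, 290.02 and 297 CPM in Rb-null libraries. In both, TET-MYCN 3 stood above all other libraries and the remaining TET-MYCN libraries were at or below the middle of the Rb-null range. Their log2 fold changes were 0.11 ± 0.17 and 0.09 ± 0.16 with all libraries, and -0.10 ± 0.10 for each without TET-MYCN 3.

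Shares within a library do not depend on its scaling. Per transcript length, Atp5g2 made up 38.6%, 36.03%, 35.3% and 43.5% of the 3 genes in TET-MYCN libraries and 35.04%, 34.3%, 31.5% and 35.5% in Rb-null libraries. The groups overlapped narrowly, at 35.3% in TET-MYCN 3 and 35.5% in Rb-null 4, and no test was made. Atp5g3 held 58.4% ± 3.66 in TET-MYCN libraries and 62.5% ± 1.77 in Rb-null libraries. The share of Atp5g1 depends on its length: 3.26% ± 0.16 in TET-MYCN libraries and 3.44% ± 0.12 in Rb-null libraries per length, but of raw counts 17.9% ± 0.76 in TET-MYCN libraries and 18.8% ± 0.56 in Rb-null libraries. Atp5g2 has 2 pseudogenes in the near-identical class, the closest at 100% identity, so its reads are less certainly assigned.

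**Figure D4:**
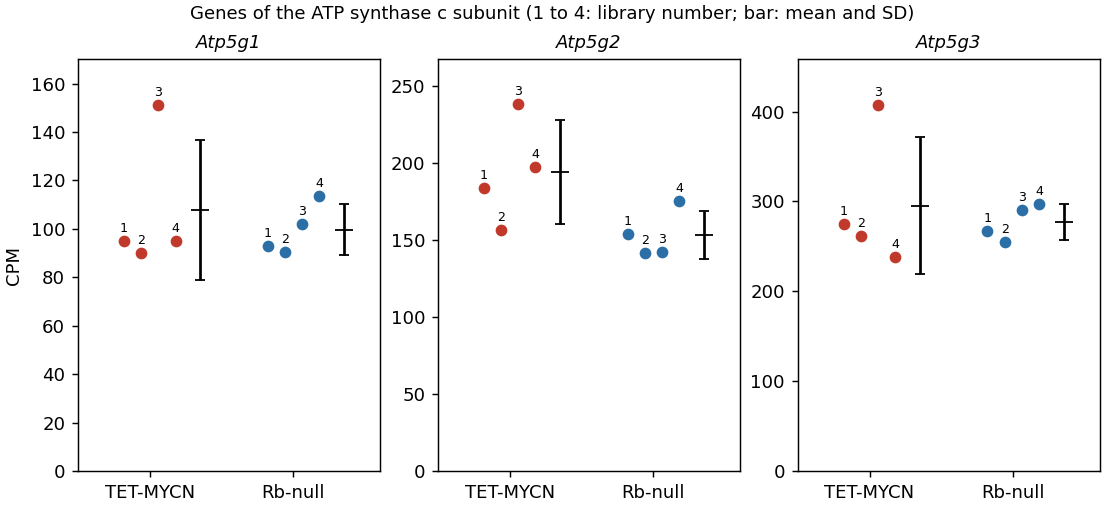
CPM of Atp5g1, Atp5g2 and Atp5g3 per library, TET-MYCN left of Rb-null in each panel; numbers are library numbers, and bars are the mean and SD of 4 libraries. For Atp5g2, TET-MYCN 1, 3 and 4 at 184, 238 and 197 CPM lie above the highest Rb-null library at 175 CPM, while for the other genes only TET-MYCN 3 does.

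The promoters of the 3 c subunit genes are shown because the genes code for one protein while their upstream sequences differ. Each is the 250 bases before the start in RefSeq (GRCm38.p6, all on the minus strand, 5′ to 3′): chr11:96075632-96075881 for Atp5g1, chr15:102671048-102671297 for Atp5g2 and chr2:73911327-73911576 for Atp5g3. Capitals mark the E-box CACGTG in Atp5g1 and Atp5g3 and the NRF1 motif in Atp5g2.
Atp5g1: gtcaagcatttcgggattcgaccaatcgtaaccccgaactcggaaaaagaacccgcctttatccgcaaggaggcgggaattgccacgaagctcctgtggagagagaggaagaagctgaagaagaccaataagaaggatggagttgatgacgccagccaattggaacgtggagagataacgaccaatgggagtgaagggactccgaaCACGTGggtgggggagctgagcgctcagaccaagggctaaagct
Atp5g2: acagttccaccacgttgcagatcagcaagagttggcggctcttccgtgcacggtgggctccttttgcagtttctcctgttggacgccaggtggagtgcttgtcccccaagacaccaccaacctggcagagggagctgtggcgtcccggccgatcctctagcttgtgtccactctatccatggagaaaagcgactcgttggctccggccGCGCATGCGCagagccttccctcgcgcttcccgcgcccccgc
Atp5g3: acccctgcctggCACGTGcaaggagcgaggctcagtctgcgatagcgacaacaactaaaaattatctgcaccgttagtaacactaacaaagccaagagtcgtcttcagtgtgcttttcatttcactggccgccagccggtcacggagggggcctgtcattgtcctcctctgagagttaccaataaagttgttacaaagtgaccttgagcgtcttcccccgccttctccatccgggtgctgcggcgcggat
The E-box begins 44 bases before the start in Atp5g1 and 238 bases before it in Atp5g3, and the NRF1 motif 42 bases before it in Atp5g2. Atp5g3 also has an NRF1 match, 13 bases after the start and so outside the printed stretch. Atp5g2 has no exact CACGTG in its printed stretch. Binding was not measured, so these letters do not tell whether MYCN acts on any of the 3 genes.

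RefSeq windows of 300 bases (250 before and 50 after the start, both strands searched) were available for 69 of the 85 members. The E-box CACGTG was in 10.1% of them, against 8.09% of all genes with a window and 11.4% of the tested genes. The NRF1 motif was in 24.6% of members and 10.3% of tested genes, the ETS motif CCGGAAG in 23.2% and 17.5%, and the YY1 motif AANATGGCG in 15.9% and 5.14%. The 7 members with an E-box, Ndufa7, Ndufv1, Atp5f1, Atp5g1, Atp5g3, Atp5l and Atp5sl, had a median log2 fold change of 0.09, and the 60 tested members without one had 0.06. The medians with and without the motif were 0.02 and 0.08 for NRF1, 0.10 and 0.07 for ETS, and 0.05 and 0.08 for YY1. Without TET-MYCN 3 all of these medians were negative, -0.10 with and -0.11 without the E-box and -0.13 with and -0.10 without the NRF1 motif. A match describes the letters of the window and is not a bound site.

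Of the remaining members of complex V, Atp5sl, the complex I assembly protein, was at 34.9, 32.3, 38.9 and 31.9 CPM in TET-MYCN libraries and 37.4, 34.0, 53.0 and 48.0 CPM in Rb-null libraries. Its log2 fold change was -0.32 ± 0.15 with all libraries (adjusted p = 0.332) and -0.38 ± 0.16 without TET-MYCN 3 (adjusted p = 0.180, edgeR's quasi-likelihood test). The TET-MYCN libraries were the lower ones on the whole, and TET-MYCN 1 and 3 lay among the Rb-null libraries. Atp5s, its relative, had 0.04 ± 0.17 with all libraries and -0.11 ± 0.14 without TET-MYCN 3.

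Among the 8 fits that left out 1 library, the lowest median of every complex came without TET-MYCN 3. Complex I ran from -0.14 to 0.09, complex II from -0.01 to 0.11, complex III from -0.09 to 0.12, complex IV from -0.10 to 0.16 and complex V from -0.10 to 0.14. Without any other single library the medians of complexes II to V stayed positive, while that of complex I was -0.01 without Rb-null 2 and at 0 to within 0.01 without Rb-null 1. None of the 8 fits called a member (lowest adjusted p 0.0877, edgeR's quasi-likelihood test).

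**Figure D5:**
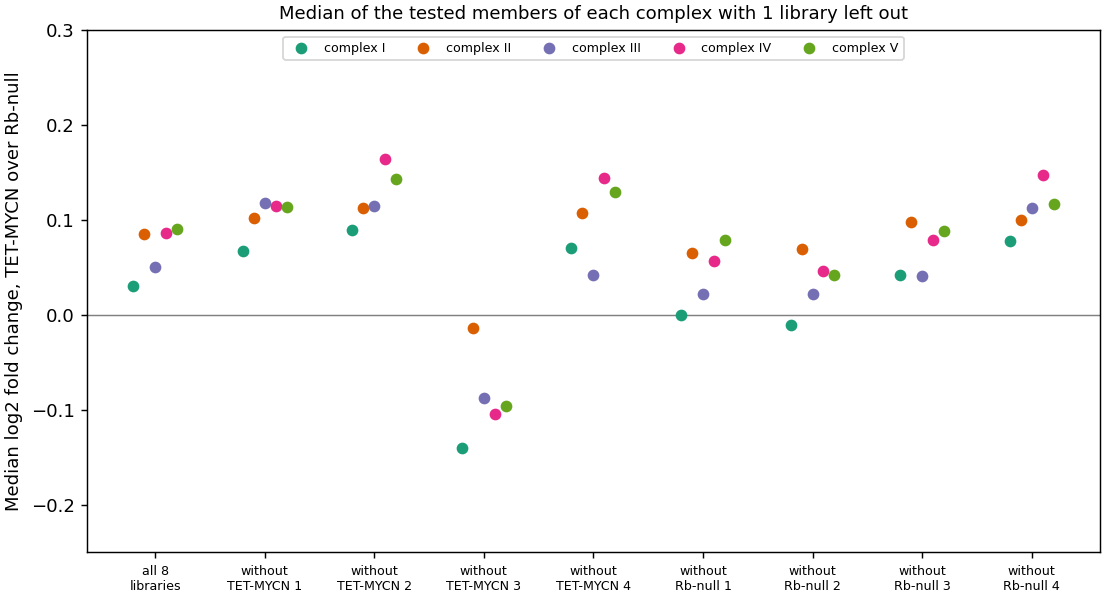
Median log2 fold change, TET-MYCN over Rb-null, of the tested members of each complex with all 8 libraries and with 1 library left out in turn; each point is 1 complex. All 5 medians are below 0 without TET-MYCN 3, at -0.14 for complex I and -0.01 for complex II, and at most 0.16 elsewhere.

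Genes that build and feed the chain were read from the same fit. None of 27 tested assembly factors was called (1 at an unadjusted p under 0.05), and their median log2 fold change was 0.02 with 14 positive. Without TET-MYCN 3 it was -0.07 with 9 positive and 0 called. Tmem70, which helps assemble ATP synthase, was at 32.2, 34.2, 39.2 and 28.1 CPM in TET-MYCN libraries and 27.2, 23.9, 25.9 and 27.2 CPM in Rb-null libraries. Its groups did not overlap, the only 1 of the 27 assembly factors, which is 3.70% against 7.65% of all genes. Its log2 fold change was 0.36 ± 0.12 (adjusted p = 0.220, edgeR's quasi-likelihood test), and 0.27 ± 0.11 without TET-MYCN 3 (adjusted p = 0.165). Ndufaf2, a complex I assembly factor, and Cox18, which inserts a complex IV subunit, had 0.31 ± 0.16 and 0.31 ± 0.17 with all libraries, and 0.16 ± 0.13 and 0.15 ± 0.14 without TET-MYCN 3.

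Among 18 genes of the tricarboxylic acid cycle and pyruvate dehydrogenase, 0 were called (2 at an unadjusted p under 0.05), with a median of -0.06 and 6 positive. Suclg2, a subunit of the GTP-forming succinyl-CoA ligase, was at 28.5, 19.4, 18.7 and 32.3 CPM in TET-MYCN libraries and 13.2, 14.6, 9.69 and 13.4 CPM in Rb-null libraries. Idh2, the mitochondrial NADP-dependent isocitrate dehydrogenase, was at 136, 112, 132 and 180.4 CPM in TET-MYCN libraries and 95.7, 112, 72.0 and 94.5 CPM in Rb-null libraries. Ogdh, an oxoglutarate dehydrogenase subunit, was at 209.9, 231, 219 and 213 CPM in TET-MYCN libraries and 243, 245, 271 and 239 CPM in Rb-null libraries. The groups did not overlap for these 3 genes, higher in TET-MYCN libraries for Suclg2 and Idh2 and lower for Ogdh, which is 16.7% of the list against 7.65% of all genes. The gap was narrow for Idh2, at 112.4 and 111.8 CPM. Log2 fold changes were 0.96 ± 0.21 for Suclg2 and 0.58 ± 0.17 for Idh2, with adjusted p of 0.155 and 0.184, and -0.19 ± 0.09 for Ogdh, with 0.327 (edgeR's quasi-likelihood test). In the fit that left out TET-MYCN 3 the list's median was -0.12. Suclg2, 1 of the 18 genes, passed there at 1.07 ± 0.20, while Idh2 at 0.61 ± 0.18 did not (adjusted p = 0.0402 and 0.108, edgeR's quasi-likelihood test). That fit called 1.52% of all genes (1.16% higher and 0.357% lower), 230 genes against 9 with all libraries.

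Of 14 genes for cytochrome c, coenzyme Q synthesis and mitochondrial carriers, 0 were called (0 at an unadjusted p under 0.05), with a median of 0.08 and 12 positive. The leading values were 0.33 ± 0.16 for Atpif1, the inhibitor of ATP synthase, 0.27 ± 0.15 for Pdss1, which acts early in coenzyme Q synthesis, and 0.19 ± 0.13 for Slc25a5, an ADP/ATP carrier. Without TET-MYCN 3 the median was 0.00 with 7 positive, and Atpif1 had 0.20 ± 0.13, Pdss1 0.26 ± 0.15 and Slc25a5 0.12 ± 0.13. Of 14 regulators of mitochondrial biogenesis 0 were called (1 at an unadjusted p under 0.05), with a median of 0.05 and 8 positive. Ppargc1a, a coactivator of mitochondrial genes, was at 18.6, 19.4, 16.7 and 11.3 CPM in TET-MYCN libraries and 19.5, 17.5, 31.6 and 26.2 CPM in Rb-null libraries, with overlapping groups and log2 fold change -0.52 ± 0.22 (adjusted p = 0.301, edgeR's quasi-likelihood test). Tfam, which packages and transcribes mitochondrial DNA, had 0.21 ± 0.10, and Ppargc1b, a relative of Ppargc1a, -0.88 ± 0.44. The regulators' median without TET-MYCN 3 was 0.03 and 0 were called, with -0.53 ± 0.25 for Ppargc1a, 0.14 ± 0.09 for Tfam and -0.68 ± 0.45 for Ppargc1b. The regulator Pprc1 went the other way from Ppargc1a in that fit, at 0.60 ± 0.17 with overlapping groups. It had the lowest adjusted p of the list there (adjusted p = 0.0988, edgeR's quasi-likelihood test).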

How the data were processed

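RNA-seq of 4 RbnullTET-MYCN and 4 Rbnull peripheral retina libraries from mice at postnatal day 12 was analysed, grouped by the submitters' labels. The authors deposited 1 table of raw read counts per gene and library. CASAVA 1.8.2, TopHat2 2.0.8b, HTSeq 0.5.4p3 and mouse build mm9 are listed in the submitters' processing notes. Their options, the annotation and strand use were not given in these sources, so overlapping antisense genes cannot be told apart. Summary rows that name no gene, 28.3% to 31.7% of all entries per library, were left out.

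Counts were tested with edgeR 4.0.16 (R 4.3.3): TMM scaling, filterByExpr, the robust quasi-likelihood test and Benjamini-Hochberg adjustment over 15106 genes, called at 0.05. Levels are CPM, counts scaled to TMM-adjusted library size, and fold changes are TET-MYCN over Rb-null. DESeq2 1.42.0, limma-voom (limma 3.58.1), other scalings and filters, a replicate block and the omission of each library were alternatives. The scripts were tested on simulated data. Transcript lengths came from GENCODE M21, another build than the files', copies were searched with BLAST 2.17.0, and promoters came from RefSeq GRCm38.p6 with gene symbols as the link.

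Members and gene lists were chosen with earlier results of these data known. Named were, per complex, the 3 tested members with the smallest unadjusted p, the highest level per length and the extreme fold changes, plus core subunits, restricted isoforms, symbols that are not subunits, and the 3 genes of each other list with the smallest unadjusted p. Sdhaf1 and Pprc1 were added after their values were seen, for the lowest adjusted p of their lists without TET-MYCN 3. Mitochondrially encoded transcripts were not analysed here, and the values of 1 complex I member are not reported here.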

Additional observations from a re-analysis of the deposited data

Results flagged for a closer look

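In groups of 4 libraries, a value was singled out where its gap to the nearest of the others, divided by the range of the group, was above Dixon's critical value, which chance passes in about 1 of 20 groups. Of 88 groups examined, 5 had such a value. TET-MYCN 3 stood high in 3 of them. The summed level of complex I was 3752 CPM there, against 2399 to 2557 CPM in the other TET-MYCN libraries. In TET-MYCN 3 the c subunit gene Atp5g1 reached 151.1 CPM, where the others of its group had 89.95 to 95.07 CPM. The anchor gene Sdhd reached 98.53 CPM in this library, where the others had 71.4 to 75.59 CPM. Cox4nb was low in TET-MYCN 2, at 111.7 CPM against 115.4 to 115.6 CPM in the other TET-MYCN libraries. Uqcrfs1 was high in Rb-null 4, at 96.84 CPM against 89.4 to 90.28 CPM in the other Rb-null libraries.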

How the results depend on the processing

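No member was called under any alternative, and the lowest adjusted p of a named member ran from 0.0877 to 0.5905 over the settings (edgeR's quasi-likelihood test unless DESeq2 or limma-voom is named). The number of genes called among all tested was 9, and moved to 539 with DESeq2, 0 with limma-voom, 17 without a filter, 3 with the replicate block, and 0 to 230 when libraries were left out, the highest without TET-MYCN 3 and 132 without TET-MYCN 2. Deviations of libraries with the same replicate number from their group means correlated at -0.04, -0.06, -0.12 and -0.29. No pairing by number was seen, though this check cannot exclude one. With the replicate block the median of the members was 0.04. Leaving out TET-MYCN 3 together with Rb-null 1, the libraries with the largest shares of entries for alignments to several places, was chosen after seeing the data. Over these fits and those leaving out 1 library, the median log2 fold change ran from -0.168 to 0.0898 for complex I, -0.046 to 0.11 for complex II, -0.139 to 0.118 for complex III, -0.150 to 0.16 for complex IV and -0.12 to 0.14 for complex V. Of 34 named members, 15 changed sign without TET-MYCN 3, and at most 3 without any other single library; the cause was not tested. With libraries left out, the log2 fold change ran from -0.0538 to 0.0795 for Atp5a1, -0.148 to 0.00668 for Atp5b, -0.0461 to 0.168 for Atp5c1, -0.0248 to 0.289 for Atp5e, -0.14 to 0.183 for Atp5g1, -0.134 to 0.182 for Atp5g3, -0.114 to 0.13 for Atp5s, -0.15 to 0.115 for Cox4i1, -0.113 to 0.161 for Cox5b, -0.213 to 0.0334 for Cox6a1, -0.227 to 0.274 for Cox6b2, -0.074 to 0.113 for Cyc1, -0.186 to 0.103 for Ndufs8, -0.0275 to 0.239 for Sdhb, -0.0548 to 0.105 for Sdhc, -0.0368 to 0.155 for Sdhd, -0.0866 to 0.205 for Uqcr11, -0.0674 to 0.188 for Uqcrfs1 and -0.102 to 0.229 for Uqcrh. Ndufs8 was -0.013 with limma-voom and with the replicate block. Counts of 0 to 31 per library limit Ndufs5, Cox7a1 and the untested isoforms.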

Other observations

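BC002163, the near-identical copy of Ndufs5, was looked at after its values were seen. It had 1, 154, 259 and 1 counts in TET-MYCN libraries 1 to 4 and 2, 91, 3 and 104 counts in Rb-null libraries 1 to 4, so that both groups held libraries with 1 to 3 counts and libraries with 91 or more. Ndufs5 itself had 20, 25, 31 and 19 counts in TET-MYCN libraries and 31, 23, 28 and 26 counts in Rb-null libraries, and did not follow that split.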
